A study of Homo sapiens with 2 samples.

Results

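N6-methyladenosine (m6A) peaks were examined in 7 genes that act on or around the tumour suppressor p53: MDM2, MDM4, PPM1D, TP53INP1, TP53INP2, TP53BP1 and TP53BP2. A peak was taken as belonging to a gene when its summit, the position of highest signal, lay inside the RefSeq span of that gene on hg38, whatever gene the deposited list named. By this rule 20 of the 39801 peaks of the list fell in 6 of the 7 genes, and TP53INP2 held none. The gene that encodes p53 is not among these 7 and was not analysed here.

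The material was HCCLM3, an established human hepatocellular carcinoma cell line. The labels give a wild-type genotype and no treatment for either library. There was 1 library of RNA captured with an m6A antibody (RIP) and 1 input library of uncaptured RNA, with no replicate of either. The series concerns the CREB coactivator CRTC2 and the m6A-binding protein YTHDF2 in liver cancer, and no sample with altered CRTC2 or YTHDF2 was analysed here, so the comparison is RIP against input in unmodified cells.

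p53 is kept low in unstressed cells mainly by MDM2, a ubiquitin ligase that marks it for degradation and whose own gene p53 activates, and by MDM4, a relative of MDM2 that binds the activation domain of p53. PPM1D encodes the phosphatase WIP1, which removes activating phosphates from p53 and from the DNA damage kinases. m6A is placed on the RNA in the nucleus, is concentrated in long internal exons and in the start of 3′ UTRs of many mRNAs, and is read by proteins that change the stability or the translation of the mRNA.

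The 6 peak-bearing genes each held a 3′ UTR peak with a q-value under 0.05, the threshold used throughout for the caller's own adjusted p-value. The share of protein-coding genes with such a peak, or with their strongest peak so labelled, is not given here. Of the 3′ UTR peaks in these genes 7 of 8 passed, against 78.6% of all 3′ UTR peaks in the list. For TP53BP1 its 3′ UTR peak, for MDM2 the strongest peak and for TP53INP1 all 3 peaks lay where the span of another gene overlaps. So 5 of the 20 peaks cannot be given to 1 gene by position. By fold as deposited, the strongest peak was labelled 3′ UTR in 5 of them and 5′ UTR in TP53BP1; without the caller's pseudocount it was labelled 3′ UTR in 3, 5′ UTR in TP53BP1 and TP53INP1, and intron in MDM4. Of the 20 peaks, 8 were labelled 3′ UTR, 2 were labelled 5′ UTR, 5 were labelled exon and 5 were labelled intron. Exon and UTR labels thus made up 75% of the peaks (95% Wilson interval 53.1 to 88.8), against 38.4% of the 30222 peaks with a summit in any protein-coding span. No peak carried a promoter label (0%, interval 0 to 16.1), against 15.0% of peaks in protein-coding spans, a share inside that interval. RefSeq gives 10 windows, from 250 bases before to 50 bases after a transcript start, for 6 of the genes. None of the peaks overlapped any of them, and no such window was used for TP53INP1.

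Fold is the authors' value for each peak: RIP at the summit divided by the caller's input level, on a linear scale. It is taken after library scaling and with a pseudocount of 1. The RIP fragments at each summit and the caller's input level for it were recovered from the fold and the p-value. That level is what the fold implies and not a count of input fragments under the summit. Many levels were not whole numbers, and both PPM1D intron peaks stood at 0.246, as did the lowest level in the list. Values without the pseudocount divide by this level. Each fold is given with a 95% Poisson interval on its RIP fragments; the input level is treated as known. With 1 library on each side no test between genes or peaks was possible, and the intervals cover counting error only.

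Of the 20 peaks, 14 had a q-value under 0.05, or 70% (interval 48.1 to 85.5); the share was 48.8% over the whole list and 53.7% over peaks in protein-coding spans. The split ran along the region labels. Of the 15 exon and UTR peaks 14 passed, against 73.9% of such peaks in the list, and of the 5 intron peaks 0 passed, against 33.1%. A q-value under 1e-5 was reached by 10 of the 20, against 25.8% of the list. A fold of at least 4 was reached by 9, against 33.9%.

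**Figure D1:**
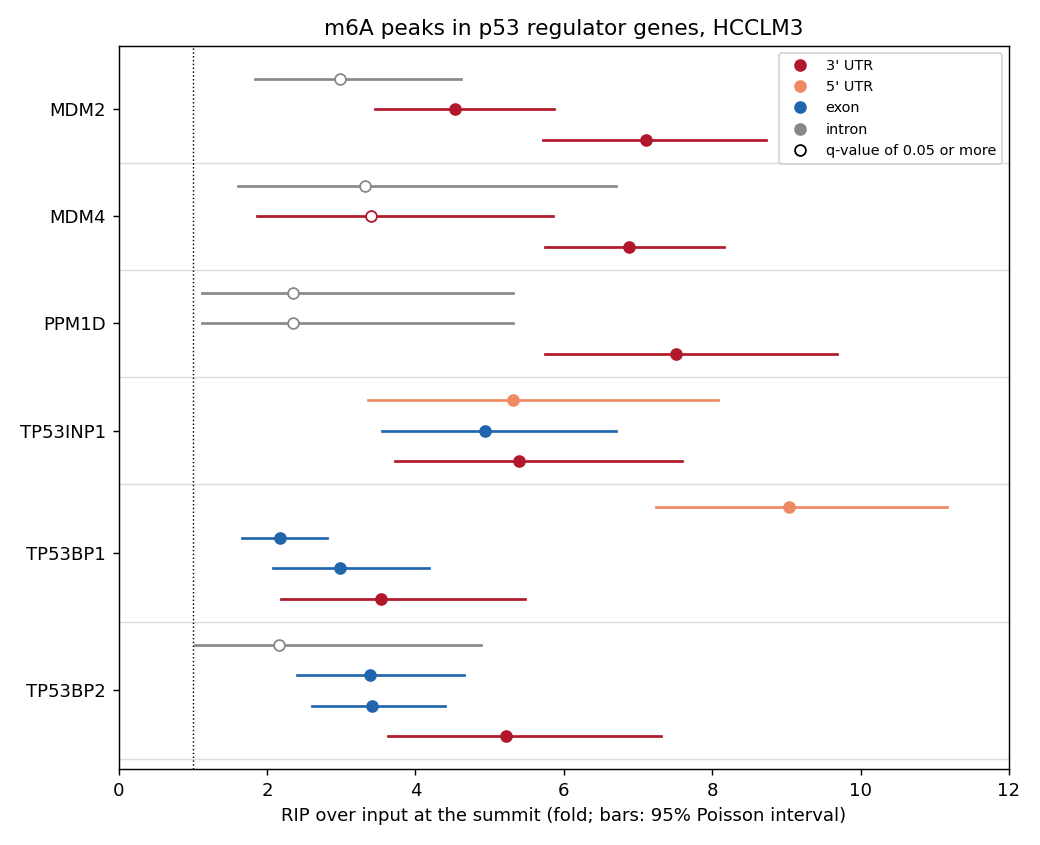
Fold of RIP over input at the summit (x axis, linear) for the 20 peaks, grouped by gene and ordered from the 5′ to the 3′ end of the gene, with 95% Poisson intervals as bars and colours for the deposited region label; open circles mark a q-value of 0.05 or more and the dotted line a fold of 1. The TP53BP1 peak labelled 5′ UTR is highest at 9.04, the 5 grey intron peaks are all open, and TP53INP2 has no peak and is not drawn.

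MDM2 (gene ID 4193, chr12:68808172-68850686, plus strand) held 3 peaks. The strongest, at chr12:68841596-68842565 and labelled 3′ UTR, had a fold of 7.10 (5.71 to 8.73) from 87 RIP fragments over an input level of 7.0. A second 3′ UTR peak at chr12:68839378-68839911 had a fold of 4.54 (3.45 to 5.87) from 55 fragments over the same input level of 7.0. Both were called with small q-values, 6.09e-27 and 1.99e-11. With equal input levels, the peak farther from the gene start carried 1.58 times the signal of the nearer one (interval 1.12 to 2.26). The intervals of the 2 folds overlapped. The remaining MDM2 peak, in intron 5 of 8 at chr12:68825575-68825871, had a fold of 2.98 (1.84 to 4.62) from 17 fragments and a q-value of 0.105.

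The summit of the strongest MDM2 peak also lay in the span of CPM, a carboxypeptidase gene whose span overlaps the end of the MDM2 span. The list has no strand for a peak, so signal of MDM2 and CPM cannot be told apart there. The 3′ UTR peak of fold 4.54 lay in no other gene's span. The 2 summits were 11.1 kb and 8.41 kb before the end of the MDM2 span, which runs to the farthest RefSeq transcript end.

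MDM4 (gene ID 4194, chr1:204516406-204558120, plus strand) also held 3 peaks, of which 1 passed. The 3′ UTR peak at chr1:204549275-204550211 had a fold of 6.87 (5.74 to 8.16) and a q-value of 9.35e-38. It rested on 127 RIP fragments, the most under any of the 20 summits, over an input level of 11. A weaker 3′ UTR peak at chr1:204544570-204544878 had a fold of 3.40 (1.87 to 5.86) from 10 fragments and a q-value of 0.0897, and it was the lone exon or UTR peak of the 7 genes to miss the threshold. The peak in intron 1 of 9 at chr1:204519789-204520209 had a fold of 3.32 (1.61 to 6.70) from 5 fragments, with a q-value of 0.0675.

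The MDM2 and MDM4 peaks of highest deposited fold were alike in fold, region label and place. Without the pseudocount, this MDM2 peak carried 1.08 times the RIP signal per input of this MDM4 3′ UTR peak, with an interval of 0.81 to 1.43 that holds 1. On that scale the MDM4 intron peak, on 5 fragments and with a q-value of 0.0675, stood at 12.04. The MDM4 3′ UTR peak stood at 7.41 and the MDM2 peak at 7.97. The MDM4 3′ UTR peak carried 0.615 times the signal per input of the intron peak, with an interval of 0.257 to 1.93 that holds 1. The likeness thus holds for the deposited fold and for these 3′ UTR peaks. This MDM2 peak is the one whose summit also lay in the span of CPM. The summits lay at 80.2% of the MDM2 span and 79.4% of the MDM4 span, and the peaks were 970 and 937 bp wide. In both genes a smaller 3′ UTR peak lay nearer the gene start, and an intron peak nearer still.

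PPM1D (gene ID 8493, chr17:60600193-60666280, plus strand) had 1 strong peak and 2 that missed the q-value threshold. Its 3′ UTR peak at chr17:60663064-60663817 had a fold of 7.51 (5.74 to 9.68) from 57 RIP fragments over an input level of 4.0, with a q-value of 2.03e-19. Its fold was above that of 88.1% of all 3′ UTR peaks in the list, the highest such standing among the 8 3′ UTR peaks here. The other peaks, at chr17:60650951-60651246 and chr17:60651756-60652051 in intron 4 of 5, had the same fold of 2.35 (1.12 to 5.32), each from 3 fragments, and a q-value of 1. Without the pseudocount the 3′ UTR peak stood at 9.14 and each intron peak at 7.82. The ratio of 1.17 had an interval, 0.380 to 5.83, that holds 1. Peaks on at most 3 fragments made up 21.4% of the list. The deposited list named BCAS3, whose transcript start is 14.03 kb beyond the 3′ UTR peak, for all 3 of these peaks, so PPM1D appears nowhere in the gene column.

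**Figure D2:**
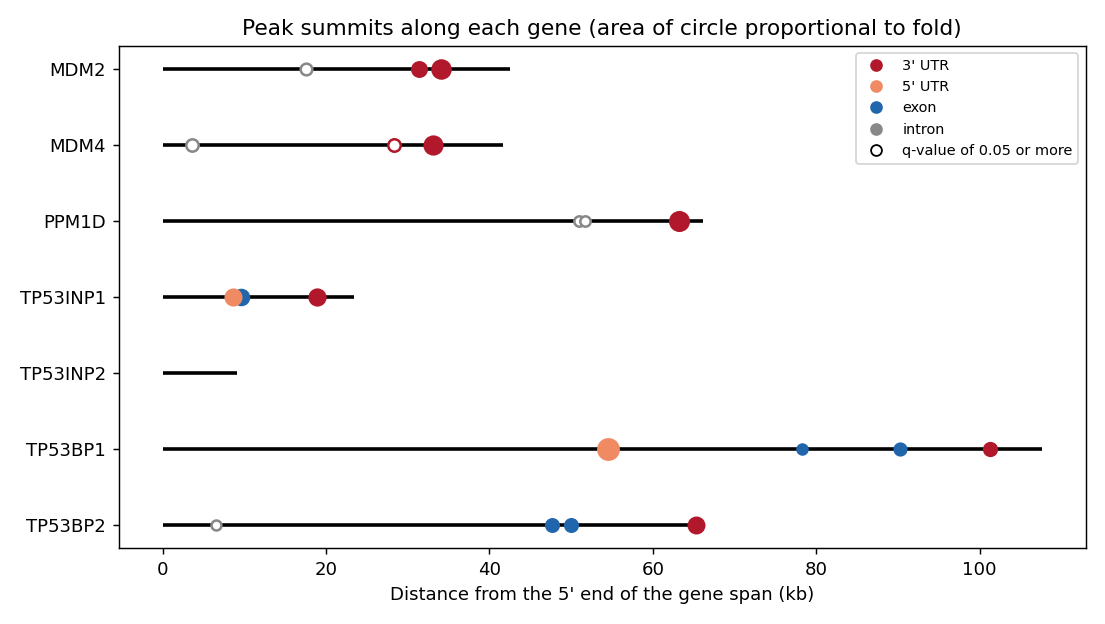
Position of each summit in kb from the 5′ end of its gene's RefSeq span (x axis) for the 7 genes, with each span as a black line; circle area is proportional to fold, colour gives the deposited region label and open circles mark a q-value of 0.05 or more. Summits lie beyond the midpoint of the span for 15 of the 20 peaks, TP53INP1 has peaks at 8.55, 9.58 and 18.9 kb, and the line of TP53INP2 is bare.

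TP53INP1 and TP53INP2 encode related small proteins. TP53INP1 is induced by p53 under stress and takes part in cell death and autophagy, and TP53INP2 is a scaffold of autophagosome formation. They differed in the list: TP53INP1 held 3 peaks, each with a q-value under 1e-5, and TP53INP2 held 0.

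The TP53INP1 peaks (gene ID 94241, chr8:94925972-94949378, minus strand) were near equal in fold, with summits at 36.5%, 40.9% and 80.7% of the span. The peak labelled 5′ UTR, at chr8:94940595-94940955, had a fold of 5.32 (3.36 to 8.08) from 19 RIP fragments over an input level of 1.48. The peak in exon 3 of 5, at chr8:94939630-94939977, had a fold of 4.93 (3.55 to 6.70) from 38 fragments over 4.14. The 3′ UTR peak at chr8:94930374-94930696 had a fold of 5.40 (3.73 to 7.59) from 30 fragments over 2.75. The intervals of all 3 overlapped, and without the pseudocount the 3′ UTR peak carried 0.849 times the signal per input of the 5′ UTR peak (0.462 to 1.6) and 1.19 times that of the exon peak (0.711 to 1.97). TP53INP1 was the gene with the densest peaks, at 1.28 per 10 kb of span against 0.372 to 0.719 in the other 5 peak-bearing genes. Its span of 23.4 kb was the shortest of the peak-bearing genes, and its 3 peaks were as many as in MDM2, MDM4 and PPM1D. No density over all protein-coding genes was given. The whole TP53INP1 span lies in that of NDUFAF6, a gene for an assembly factor of respiratory complex I. Each TP53INP1 peak thus also counts for NDUFAF6 by position, while the exon label of the list names TP53INP1.

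TP53INP2 (gene ID 58476, chr20:34704344-34713436, plus strand) has the shortest span of the 7 genes, 9.09 kb. The nearest summit lay 27.2 kb away. The deposited list named TP53INP2 for 3 peaks, but each lay in exon 11 of 15 of NCOA6, a gene for a nuclear receptor coactivator, with folds of 4.95 (3.93 to 6.17), 2.32 (1.73 to 3.04) and 6.20 (5.17 to 7.37). The list holds peaks above the caller's threshold and no values elsewhere, so the input level in TP53INP2, and whether its RNA was present, is not known from it.

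TP53BP1 and TP53BP2 share a name for binding p53 and are not related in sequence family. TP53BP1 encodes 53BP1, a chromatin reader that steers the repair of DNA breaks toward end joining. TP53BP2 encodes ASPP2, which directs p53 toward genes of cell death.

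TP53BP1 (gene ID 7158, chr15:43403061-43510640, minus strand) held 4 peaks that passed the q-value threshold, and the highest fold of the 7 genes. That peak, at chr15:43455850-43456955, was the widest of the 20 at 1106 bp and had a fold of 9.04 (7.24 to 11.2) from 83 RIP fragments over an input level of 5.0, with a q-value of 7.03e-32. Its fold was above that of 97.1% of all peaks. The list labelled it 5′ UTR, although its summit lay 54.5 kb into the span, at 50.7% of its length, and 36.2 kb from the transcript start that the list used. Transcript models were not used here, so its place in other TP53BP1 transcripts was not determined.

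The other TP53BP1 peaks were clearly lower. Exon 21 of 28, at chr15:43420134-43420434, held a fold of 2.98 (2.07 to 4.18) from 31 fragments, with a q-value of 0.00305. Exon 17 of 28, at chr15:43431986-43432571, held a fold of 2.17 (1.66 to 2.80) from 56 fragments, with a q-value of 0.00628. Its input level of 16.0 was the highest of the 20 peaks. The 3′ UTR label fell on chr15:43409190-43409613, with a fold of 3.54 (2.18 to 5.48) from 17 fragments and a q-value of 0.0181; this summit lay in the span of TUBGCP4, a gene of the γ-tubulin complex, as well. The interval of the strongest peak lay above those of the other 3, and without the pseudocount it carried 4.74 times (3.34 to 6.78) the signal per input of exon 17, 3.21 times (2.10 to 5.02) that of exon 21 and 2.31 times (1.36 to 4.16) that of the 3′ UTR peak. Without the peak shared with TUBGCP4, TP53BP1 had no 3′ UTR peak. The list named TUBGCP4 for that peak and for the one in exon 21.

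TP53BP2 (gene ID 7159, chr1:223779893-223845947, minus strand) held 4 peaks and no other gene's span at any of them. The strongest, labelled 3′ UTR at chr1:223780413-223780860, had a fold of 5.22 (3.63 to 7.31) from 31 fragments and a q-value of 1.16e-07, and its summit lay 0.723 kb from the end of the span. Exon 13 of 18 at chr1:223795776-223796438 and exon 12 of 18 at chr1:223798046-223798434 held folds of 3.42 (2.61 to 4.40) and 3.39 (2.40 to 4.66), from 57 and 35 fragments, with q-values of 6.59e-08 and 6.82e-05. These neighbouring exons were nearly equal in fold. Without the pseudocount the 3′ UTR peak carried 1.81 times (1.13 to 2.86) the signal per input of exon 13 and 1.75 times (1.04 to 2.92) that of exon 12, while the intervals of the folds overlapped. A peak in intron 1 of 17 at chr1:223839267-223839562 had a fold of 2.16 (1.03 to 4.89) from 3 fragments, with a q-value of 1. The 3′ UTR peak carried 1.22 times its signal per input without the pseudocount, with an interval of 0.382 to 6.25 that holds 1.

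By the highest deposited fold the order of the genes was TP53BP1 (9.04), PPM1D (7.51), MDM2 (7.10), MDM4 (6.87), TP53INP1 (5.40) and TP53BP2 (5.22). No neighbours in this order differed beyond their counting intervals, and the intervals of fold overlapped in each of the 15 pairs. Without the pseudocount the highest value was that of the MDM4 intron peak, 12.04, before TP53BP1 at 10.65. That intron peak rests on 5 fragments and had a q-value of 0.0675. The MDM4 3′ UTR peak stood at 0.615 times its value (0.257 to 1.93), an interval that holds 1. TP53INP1 at 8.24, by its 5′ UTR peak on 19 fragments, stood above MDM2 at 7.97. No interval between genes was given for the intron and 5′ UTR peaks, so this order is not resolved. As ratios without the pseudocount between the peaks of highest deposited fold, 13 of the 15 pairs had an interval that held 1. The exceptions were TP53BP1 over the MDM4 3′ UTR peak, 1.44 times (1.08 to 1.91), and TP53BP1 over TP53BP2, 1.61 times (1.05 to 2.51); the intervals were not adjusted over pairs. Among the 7805 protein-coding genes with a peak at a q-value under 0.05, the best fold had a median of 5.42 (quartiles 4.24 to 7.21). TP53BP1 and PPM1D stood above the upper quartile, MDM2 and MDM4 between the median and the upper quartile, and TP53INP1 and TP53BP2 just under the median. The MDM2 value is that of the peak shared with CPM. The MDM2 3′ UTR peak in its span alone had a fold of 4.54, below the median and below each deposited fold in the order above. Each TP53INP1 peak is shared with NDUFAF6.

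**Figure D3:**
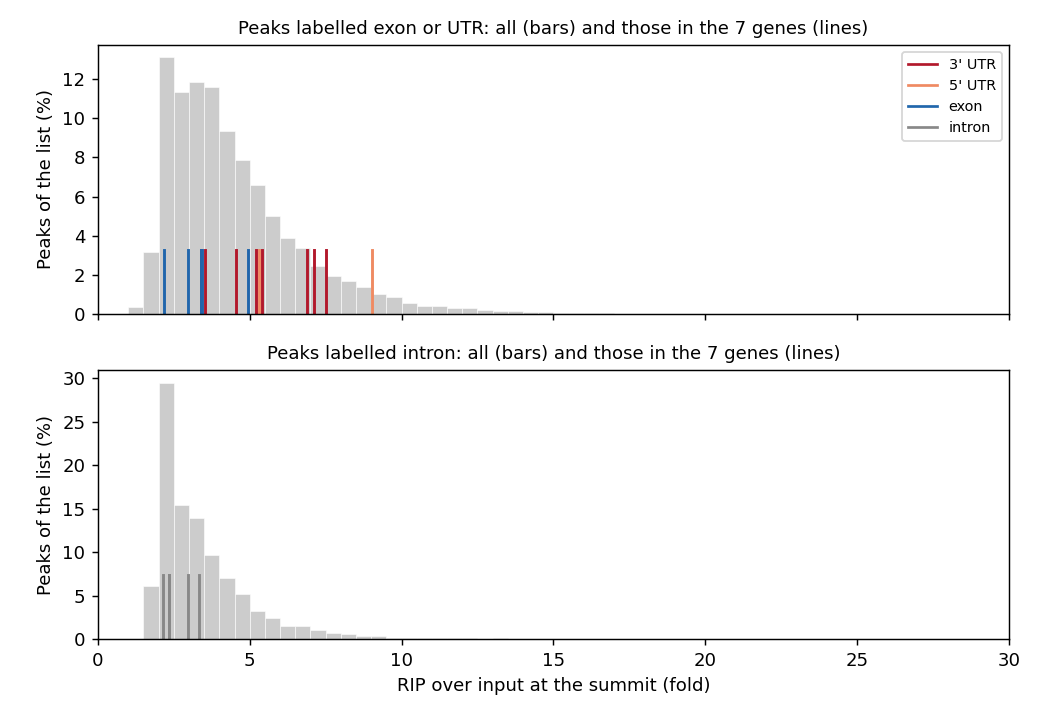
Distribution of fold over input (x axis, linear, bins of 0.5) for all peaks labelled exon or UTR (top) and all labelled intron (bottom), as the percentage of peaks with that label (bars); vertical lines mark the 15 and the 5 peaks of the 7 genes, with equal values drawn over each other. The 15 exon and UTR peaks spread from 2.17 to 9.04 inside the bulk of the upper distribution, and the 5 intron peaks lie between 2.16 and 3.32.

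Over the 20 peaks the median fold was 3.48 (quartiles 2.98 to 5.34), close to 3.38 (2.42 to 4.72) over peaks in protein-coding spans. By label, the 8 3′ UTR peaks had a median of 5.31 (range 3.40 to 7.51) against 4.12 for 3′ UTR peaks of the list, and the 5 exon peaks had a median of 3.39 (2.17 to 4.93) against 3.80. The 5 intron peaks had a median of 2.35 against 2.90. The depth differed with the label: a median of 43 RIP fragments lay under the 3′ UTR summits and 38 under the exon summits, and a median of 3 under the intron summits. The median input level was 5.0 at the 15 exon and UTR summits, against 3.0 over such peaks of the list, and 0.266 at the intron summits. Since the pseudocount weighs most on peaks of low input, folds do not rank intron against exon peaks.

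Most summits lay beyond the midpoint of the span, in these genes and in protein-coding genes as a whole. Of the 20 summits 15 (75%, interval 53.1 to 88.8) were beyond the midpoint of the span, against 59.5% of 26306 summits in protein-coding genes with a known strand, a share inside the interval. For exon and UTR peaks the count was 13 of 15, against 82.5%, a share near the background, and their median place was 75.6% along the span, against 86% for such peaks in protein-coding genes. The exceptions among these were the 5′ UTR and exon peaks of TP53INP1.

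At the level of genes, 6 of 7 (85.7%, interval 48.7 to 97.4) held a peak, against 49.3% of 20037 protein-coding genes and 54.7% of those with a span between the shortest and the longest of the 7. The same 6 genes held a peak with a q-value under 0.05, against 39.0% and 43.1%. Genes were not compared at equal expression, since the list gives no RNA level. These shares thus also depend on how much RNA of each gene was present. The 7 genes were also chosen with earlier results of these data known.

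**Figure D4:**
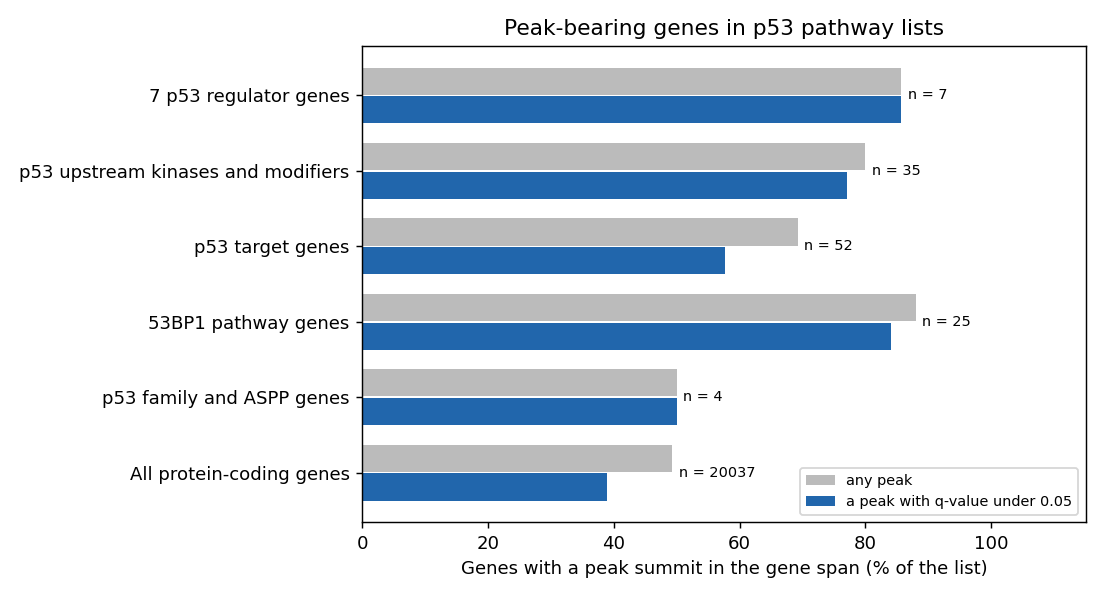
Percentage of genes with a peak summit in their span (x axis) for the 7 genes, 4 lists of other p53 pathway genes and all protein-coding genes, for any peak (grey) and for a peak with a q-value under 0.05 (blue), with the number of genes beside each bar. The 53BP1 pathway list stands highest among the 4 lists at 88% and 84%, and all protein-coding genes stand at 49.3% and 39.0%. The 7 genes and the lists were chosen with earlier results of these data known.

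Other genes of the p53 network were counted by the same rule. These lists were not matched to protein-coding genes in span or expression. They were also chosen with earlier results of these data known, so their shares do not measure an excess over protein-coding genes. Of 35 kinases, other modifiers and further genes that act upstream of p53, 28 (80%) held a peak, against 49.3% of protein-coding genes. A peak with a q-value under 0.05 was held by 27, with a median best fold of 5.08. The highest folds among those were in KAT6A, a histone acetyltransferase gene, with a promoter-labelled peak at chr8:42048324-42049247 of fold 15.9 (12.8 to 19.4), and in CSNK1D, a casein kinase gene, with a peak in intron 2 of 8 at chr17:82259776-82260822 of fold 10.02 (8.07 to 12.3). They were followed by DYRK2, a kinase gene, with a promoter-labelled peak of fold 7.18 (5.47 to 9.26), and ATR, the kinase of replication stress, with a peak in intron 36 of 46 of fold 6.61 (4.38 to 9.64). Against a background of 39.0% of protein-coding genes, 77.1% of this list held a peak with a q-value under 0.05.

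Of 52 p53 target genes, 36 (69.2%) held a peak, against 49.3% of protein-coding genes. A peak with a q-value under 0.05 was held by 30 (57.7%, against 39.0%), with a median best fold of 5.46. The highest folds were in ASCC3, a helicase gene, with a peak in exon 3 of 42 at chr6:100863824-100864193 of fold 9.70 (6.58 to 13.9), and in TNFRSF10B, a TRAIL death receptor gene, with a 3′ UTR peak at chr8:23022336-23022936 of fold 8.59 (7.14 to 10.3). TNFRSF10C, a decoy receptor of the same family, had a promoter-labelled peak of fold 8.52 (5.69 to 12.3) whose summit lay in the span of LOC254896 too. FBXW7, a substrate receptor of a ubiquitin ligase, carried a 3′ UTR peak of fold 8.08 (6.38 to 10.1).

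Of 25 genes that work with or against 53BP1 at DNA breaks, 22 (88%) held a peak, against 49.3% of protein-coding genes. A peak with a q-value under 0.05 was held by 21 (84%, against 39.0%), with a median best fold of 5.74. MRE11, a nuclease of break processing, had the highest fold, 15.7 (11.9 to 20.5), in a promoter-labelled peak at chr11:94496706-94497178 whose summit lay in the span of ANKRD49 as well. BRCA1, a ubiquitin ligase gene that counters 53BP1, had a fold of 8.91 (6.76 to 11.6) in a peak that the list labelled as an intron of another gene and that lay in the spans of LOC101929767 and LOC124900391 as well. SHLD3, of the shieldin complex that acts below 53BP1, carried a 3′ UTR peak of fold 8.52 (5.69 to 12.3) in an overlap with TRAPPC13, and RNF169, a ubiquitin ligase gene, carried a 3′ UTR peak of fold 8.21 (6.60 to 10.1) in its span alone. So 3 of these 4 peaks lay where spans overlap.

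Among the p53 relatives and the relatives of TP53BP2, 2 of 4 genes (50%) held a peak, near the 49.3% of protein-coding genes. PPP1R13B, which encodes ASPP1, had its best peak in exon 12 of 17 at chr14:103739728-103740343 with a fold of 7.95 (5.93 to 10.5) from 48 fragments. PPP1R13L, which encodes the inhibitory member iASPP, had a fold of 4.67 (2.72 to 7.63) from 13 fragments in exon 7 of 13. The p53 relatives TP63 and TP73 held 0 peaks each. The intervals of PPP1R13B, PPP1R13L and TP53BP2 overlapped.

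The labels give liver as the tissue. Of 13 hepatocyte marker genes 7 (53.8%) held a peak, near the 49.3% of protein-coding genes. A peak with a q-value under 0.05 was held by 6 (46.2%), against 39.0%. Among those the regulator HNF4A had the highest fold, 11.5 (8.54 to 15.1), in intron 1 of 7, with the summit in the span of HNF4A-AS1 as well. The 6 without a peak were the albumin gene ALB, APOA1, TTR, SERPINA1, TF and KRT18. Of 5 immune markers 0 held a peak. Of 6 endothelial and stromal markers PECAM1 alone held any, with 4 peaks, 2 of them at a q-value under 0.05. A peak list gives no RNA level, so it does not settle the cell type.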

How the data were processed

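m6A-RIP and input RNA of HCCLM3 cells were extracted with the Magna RIP kit, per the labels, and made into libraries with the SMARTer stranded kit for low amounts of total RNA. Alignment with HISAT2 and peak calling with MACS2 on hg38 are named in the submitters' processing notes; versions, settings and duplicate removal are not stated there. The authors deposited 1 list with a fold (a linear ratio of RIP to input), a −log10 p-value, a −log10 q-value and a score for each peak. The names of both significance columns were damaged, and the columns were identified from the values: the deposited score is 10 times the −log10 p-value, rounded down, for 99.99% of peaks. Peaks are numbered to 39824 and 39801 were used here.

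Gene spans came from RefSeq (GRCh38.p14), which matched the 7 genes and all 140 genes of the lists. Fragments were recovered under (scaled fragments + 1) / (input level + 1) for the fold and a Poisson tail for the p-value, with a scaling factor of 0.642, so that the RIP library is 1.56 times the input. The input level was set from the fold, so the fold is met by construction. The −log10 p-value was met within 0.001 for 100% of peaks, with 1 solution for 98.2% and for each of the 20 peaks reported. On 2000 peaks simulated under this same model 100% were recovered, which checks the arithmetic and not the model. Total depth is not known. Intervals treat fragments as independent, which PCR copies without molecular identifiers are not. Python 3.11.15 with scipy 1.17.1, pandas 2.3.3 and statsmodels 0.14.6 was used.

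With 1 library a side no test was made. The 7 genes and the lists were chosen with earlier results of these data known. Named were the 7 genes with each of their peaks, the 4 genes of highest fold with a q-value under 0.05 per pathway list, and genes whose span or deposited name meets a peak of the 7; exceptions are marked. No gene of most similar pattern was named, since there is 1 contrast. Stricter peak sets, other span rules and the deposited gene column were tried as alternatives.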

Additional observations from a re-analysis of the deposited data

How the results depend on the processing

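Counts, medians and shares over the 7 genes moved mainly with the threshold on peaks. The exon and UTR share went from 75% to 100% for q-values under 0.05, for those under 1e-5 and for folds of at least 4, and to 93.8% for peaks on at least 10 fragments. The number of peaks fell from 20 to 10 for q-values under 1e-5 and to 9 for folds of at least 4, where the median fold was 5.36 and 5.40. The 6 genes with a peak were 6 under each alternative run; by the deposited gene column TP53INP2 counts and PPM1D does not. Requiring 1 base of overlap, or 50% of each peak, inside the span left 20 peaks. At a q-value under 1e-5, modifier genes with a peak went from 28 to 17, and p53 and ASPP relatives from 2 to 1. Without the pseudocount the highest value in MDM4 was 12.04, in its intron 1 peak on 5 fragments with a q-value of 0.0675. In TP53INP1 it was 8.24, in its 5′ UTR peak on 19 fragments. No value could be given for TP53INP2 under the span rule, or for PPM1D by the gene column. Depth limits the intron peaks most, since 3 of the 5 rest on 3 fragments.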

Other observations

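The TRAIL receptor genes, which neighbour each other on chromosome 8 and encode receptors of a ligand of cell death, were chosen for mention after their values were seen. TNFRSF10B held 5 peaks, each with a q-value under 0.05 and 1 of them under 1e-5. TNFRSF10A held 2, the stronger in its 3′ UTR at chr8:23190575-23191934 with a fold of 7.93 (6.60 to 9.45) from 122 fragments, close to the 8.59 (7.14 to 10.3) of the TNFRSF10B 3′ UTR from 119 fragments. Other p53 targets, also chosen after their values were seen, held 0 peaks in their spans among the peaks used here: CDKN1A, which encodes the cell cycle inhibitor p21, BAX, which encodes a pore-forming protein of cell death, and the death receptor gene FAS. They are among the 16 of 52 target genes without a peak, and 49.3% of protein-coding genes held a peak. The list gives no input level for these genes.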
